A study of Homo sapiens with 10 samples.

Results

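The 8 genes described here encode the subunits of non-muscle myosin II and close relatives of them: the light chain genes MYL6, MYL6B, MYL9, MYL12A and MYL12B and the heavy chain genes MYH9, MYH10 and MYH14. They were chosen by symbol and matched to 8 of the 63152 gene identifiers of the expression tables, and their exons were taken from the splicing tables, which list 3102 distinct exon events in all. Of these events, 2 had a middle exon in a member gene, MYL6 exon 6 and MYH14 exon 6. The samples were C33A cells, a human cervical carcinoma line that the study describes as SWI/SNF deficient, 48 h after transient transfection, with 2 libraries per group and 10 in all. Control cells received the plasmid pOPRSVI, BRG1-wt cells pBJ5-BRG1, BRG1-mut cells pBJ5-BRG1-K798R, BRM-wt cells pCG-hBrm and BRM-mut cells pCG-hBrm-K798R. The K798R plasmids encode ATPase-deficient forms, and the control plasmid has another backbone name than the plasmids that carry the ATPases. The study describes the 2 libraries of a group as duplicates of transfected cells and does not say how far apart they were made. The p-values thus measure the spread between such duplicates, pooled over all 5 groups and not only over the groups compared.

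Non-muscle myosin II is a hexamer of a pair of heavy chains, a pair of essential light chains and a pair of regulatory light chains, and it pulls on actin filaments during cell division, adhesion and migration. The heavy chain, encoded by MYH9 (form IIA), MYH10 (form IIB) or MYH14 (form IIC), holds the ATPase motor. The essential light chains from MYL6 and MYL6B stabilise the neck of the motor, and the regulatory light chains from MYL9, MYL12A and MYL12B are phosphorylated by kinases such as MYLK and ROCK1 to switch the motor on. Alternative splicing gives MYL6 forms with different last residues and gives MYH14 forms with or without a short insert in the motor. The comparisons ask whether expression of BRG1 or BRM, the ATPases of SWI/SNF chromatin remodelling complexes, changed the level or the splicing of these genes, and whether an ATPase-deficient form did the same.

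The listed exons are small, and their sequences are shown because the choice at each of them decides the end of the MYL6 protein or the presence of the MYH14 insert. MYL6 (ENSG00000092841) lies on chromosome 12 of GRCh37 from 56552130 to 56557280, on the plus strand. Its exon 6 spans 56554410 to 56554454, has 45 bp and a GC content of 66.7%, and holds 26 coding bases before a stop codon. Of 13 annotated coding transcripts, 3 hold this exon and 5 span it without holding it. When the exon is skipped, exon 7 supplies the end of the reading frame, with the same number of coding bases before its own stop codon. The 2 coding ends are identical at 11 of 26 positions, counted from the first base of each exon, and both end in TGA. In the lines below, capitals mark exon bases up to the last base of the stop codon (MYL6) or of the exon (MYH14), and lower case marks intron bases. All are from the plus strand of GRCh37.
MYL6 exon 6, chr12:56554390-56554438: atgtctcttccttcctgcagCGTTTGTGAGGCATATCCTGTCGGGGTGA
MYL6 exon 7, chr12:56555151-56555199: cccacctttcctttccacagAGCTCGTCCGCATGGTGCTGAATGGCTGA
MYH14 exon 6, chr19:50727391-50727454: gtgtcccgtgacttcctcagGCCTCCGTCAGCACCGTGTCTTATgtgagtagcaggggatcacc
The 20 intron bases before MYL6 exon 6 hold 15 pyrimidines, those before exon 7 hold 16, and those before MYH14 exon 6 hold 13. The introns on either side of MYL6 exon 6 have 305 and 716 bp. MYH14 (ENSG00000105357) lies on chromosome 19 from 50691443 to 50813799, on the plus strand. Its exon 6 spans 50727411 to 50727434, has 24 bp, all coding, and a GC content of 58.3%, between introns of 804 and 1407 bp. It is in 4 of 7 annotated coding transcripts, and 2 others span it without holding it.

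Gene levels are given as normalised reads, which are reads per library divided by the library's size factor. The reads were recovered from the deposited base means as whole numbers and came to between 28590330 and 40136207 per library. The recovered libraries are called a and b within a group, since the expression tables give them no replicate number. The labels of the BRG1 and BRM plasmids were checked on the genes that these carry. Such reads cannot tell wild type from K798R, so that part of the labels was not checked. SMARCA4, the gene of BRG1, had between 47390.2 and 61017 normalised reads in the 4 libraries with a BRG1 plasmid and between 1653 and 6725 in the other 6. SMARCA2, which encodes BRM, had between 53793 and 192283 normalised reads in the 4 libraries with a BRM plasmid and at most 13.6 elsewhere. Of the epithelial markers, KRT18 had at least 123 normalised reads and KRT8 at least 47.2 in every library, while KRT19 was at or near 0. The other markers of this list were low, with a mean over the libraries of 11.3 (EPCAM) and 1.07 (CDH1) normalised reads per kilobase of exons. The summed level of 6 muscle markers was at most 15.2 normalised reads in any library.

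The libraries differed along the GC content of genes within groups as well as between them, and this moves with several of the results below. The fifth of genes with the highest exonic GC content (at least 56.8%) had a median log2 level, relative to each gene's mean over the 10 libraries, of -1.02 in BRM-mut b, -0.95 in BRM-wt a and -0.51 in control b. The same median was 0.70 in BRM-wt b, 0.47 in BRG1-mut b and 0.82 in BRG1-mut a. The libraries of control, of BRM-wt and of BRM-mut thus stood far apart from each other within their group. Differences are therefore also given after the median of genes of like GC content, in 50 bins, had been subtracted in each library.

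In control cells the members differed widely in level per kilobase of exons. MYL12B stood highest with 14088 ± 794 normalised reads per kb (SD, n = 2), followed by MYL12A with 5362 ± 528 and MYL6 with 1060.2 ± 39.9. MYH10 had 434 ± 4.61 normalised reads per kb, MYL6B 373 ± 171, MYH9 280 ± 99.4, MYH14 61.9 ± 18.3 and MYL9 1.26 ± 0.31. The range of the 2 MYL6B values (252 and 494) enclosed both MYH10 values and overlapped with that of MYH9 (209 and 350.0), so the place of MYL6B in this order did not go beyond its spread, while MYH10 lay above MYH9 in both libraries. The other neighbours in this order did not overlap. The order was the same with the length of the longest annotated transcript in place of that of all exons. C33A cells thus held mostly MYL12A and MYL12B RNA among the regulatory light chains, MYL6 among the essential ones and MYH10 and MYH9 among the heavy chains.

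**Figure D1:**
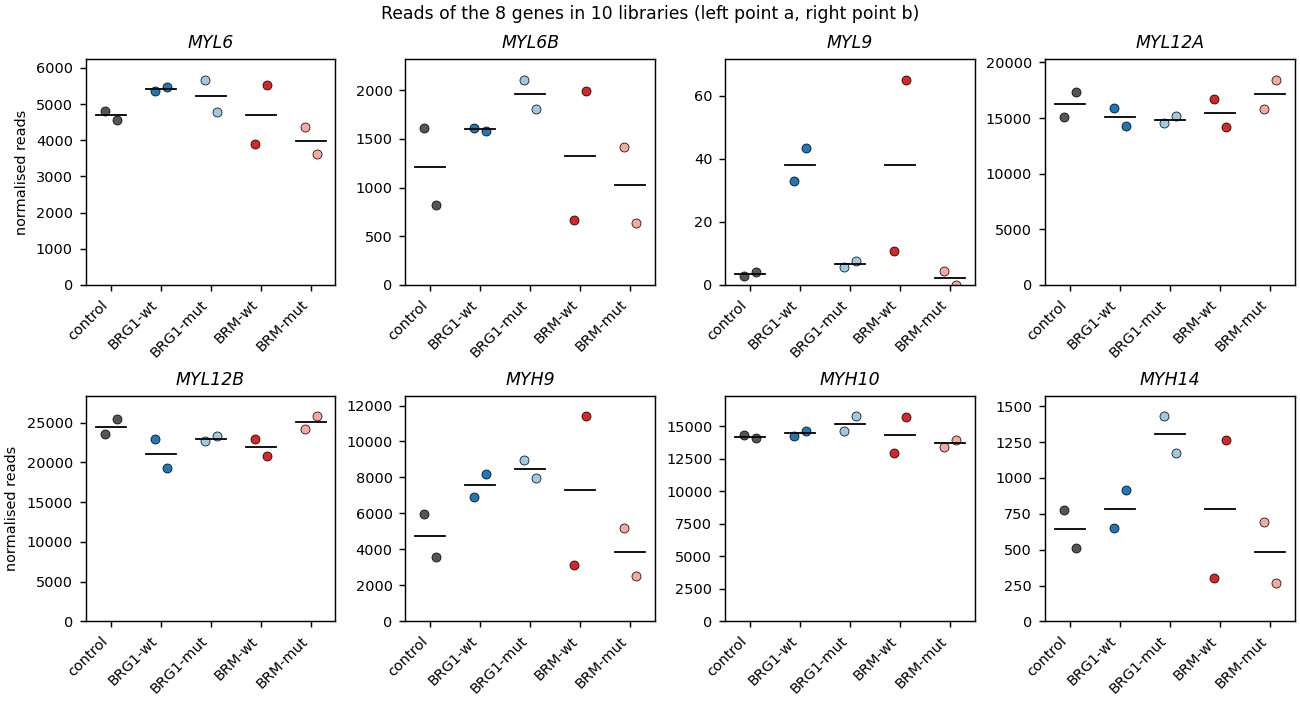
Normalised reads (vertical axes, from 0) of the 8 genes in the 10 libraries, by group. In each group the left point is library a, the right point library b and the line their mean. MYL9 had 32.98 and 43.4 normalised reads in BRG1-wt and at most 4.32 in control and BRM-mut, and the points of MYH9, MYH14 and MYL6B lie far apart within control, BRM-wt and BRM-mut.

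The regulatory light chain gene MYL9 was the member with the largest differences between groups. MYL9 (ENSG00000101335, chromosome 20 from 35169900 to 35179850, plus strand) is best known from smooth muscle and shares 80.8% of its coding bases with MYL12B. It had 3 and 4 reads in the control libraries, 37 and 42 in BRG1-wt, 12 and 53 in BRM-wt, 6 and 7 in BRG1-mut, and 5 and 0 in BRM-mut. As normalised reads these were 2.91 and 4.15 in control, 32.98 and 43.4 in BRG1-wt, 10.8 and 65.2 in BRM-wt, 5.59 and 7.73 in BRG1-mut, and 4.32 and 0 in BRM-mut. Each library of BRG1-wt and of BRM-wt lay above every library of control and of both mutant groups. Over the summed reads, MYL9 was 10.8 times as high in BRG1-wt as in control (exact 95% interval 4.99 to 27.7, counting error only) and 9.61 times as high in BRM-wt (4.41 to 24.8). The same ratio was 1.87 in BRG1-mut (0.694 to 5.54) and 0.662 in BRM-mut (0.166 to 2.42). These rest on 7 control reads in all, so the size of the ratio is uncertain. The intervals leave out the spread between libraries, such as the 12 and 53 reads of BRM-wt. MYL9 also reached the minimum mean of 10 normalised reads only through the BRG1-wt and BRM-wt libraries. A higher level in these groups was thus favoured in advance. In these bulk samples, fewer cells that carry a message and less of it per cell cannot be told apart.

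The fit across all genes pooled the spread within all 5 groups. The distance between the BRM-wt libraries thus also entered the error of MYL9 between BRG1-wt and control. MYL9 was not called in any comparison. Its log2 difference from control was 3.27 (SE 1.12, adjusted p = 0.79, limma-voom) in BRG1-wt and 2.66 (SE 1.16, adjusted p = 1.0) in BRM-wt. The difference in BRM-wt rested on its libraries unequally, with 1.5 without BRM-wt b and 4.05 without BRM-wt a. Against the ATPase-deficient form, the log2 difference was 2.43 (SE 1.01, adjusted p = 0.982) for BRG1 and 4.02 (95% interval 1.12 to 6.93, adjusted p = 0.612) for BRM. With GC bin medians subtracted, these 4 log2 differences were 2.96 (adjusted p = 0.116), 2.74 (0.166), 2.89 (0.112) and 3.76 (0.0745), all above the threshold of 0.05. Without the library BRM-wt a, MYL9 passed with GC bin medians subtracted in both comparisons of wild type with mutant, with adjusted p = 0.0479 (BRG1) and 0.0436 (BRM). MYL9 passed the minimum mean of 10 normalised reads only through the BRG1-wt and BRM-wt libraries, since no other library had more than 7.73, so a gene kept on this basis had to differ. SMARCA4, which the plasmid carries, was not called between BRG1-mut and control either, with a log2 difference of 4.14 and an adjusted p = 0.522 (limma-voom). With GC bin medians subtracted, SMARCA4 was called in that comparison. Between BRG1-wt and control, SMARCA4 was called with and without the subtraction, whereas MYL9 was called in neither. The summed level of 5 epithelial markers was higher in the same groups as MYL9. It was 233.3 and 412.0 normalised reads in the control libraries, 1962 to 2074.7 in BRG1-wt and 1240.1 to 2203.5 in BRM-wt. In the mutant groups it was 461.4 to 675.1 (BRG1-mut) and 312.3 to 553.9 (BRM-mut). KRT8 and KRT18 carried this sum, whereas EPCAM had log2 differences from control of -0.17 in BRG1-wt, -0.22 in BRM-wt, 0.46 in BRG1-mut and 0.27 in BRM-mut, and KRT19 had no read in control or in either mutant group. The summed level of 4 fibroblast markers was 226.0 to 277.3 normalised reads in control, 391.3 to 518.4 in BRG1-wt, 308.2 to 521.4 in BRM-wt, 270.5 to 466.5 in BRG1-mut and 146.6 to 383.7 in BRM-mut. The part of either marker list in the result was not tested. Between BRG1-wt and BRM-wt, MYL9 differed by 0.60 (SE 0.81, 95% interval -1.29 to 2.49) on the log2 scale.

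The abundant regulatory light chain genes MYL12A and MYL12B varied little between libraries. MYL12A (ENSG00000101608, chromosome 18 from 3247479 to 3256234) and MYL12B (ENSG00000118680, chromosome 18 from 3261477 to 3278459) are neighbours on the plus strand and share 95.7% of their coding bases, so reads from either may be counted to the other or dropped. MYL12A ranged from 14239 to 18459 normalised reads over the 10 libraries, a factor of 1.3, and the groups overlapped in each comparison with control. MYL12B had 23509 and 25461 normalised reads in control, 22937 and 19273 in BRG1-wt, 22650.1 and 23342 in BRG1-mut, 22937 and 20862 in BRM-wt, and 24228 and 25808 in BRM-mut. Both libraries of BRG1-wt, of BRG1-mut and of BRM-wt lay below both control libraries. The log2 differences from control were -0.21 (SE 0.11, adjusted p = 0.99, limma-voom) in BRG1-wt, -0.08 in BRG1-mut and -0.16 in BRM-wt, none of which passed the test. No difference of MYL12A between the groups compared exceeded 0.20 in size on the log2 scale. For MYL12A in BRG1-wt against control the 95% interval was -0.41 to 0.21.

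Among the essential light chain genes, MYL6 varied by a factor of 1.57 over the libraries and MYL6B by a factor of 3.3, and neither passed the test. MYL6 had 4815 and 4566 normalised reads in control, 5349 and 5475 in BRG1-wt, 5677 and 4779 in BRG1-mut, 3903 and 5519.7 in BRM-wt, and 4378 and 3606 in BRM-mut. Both BRG1-wt libraries lay above the control libraries and both BRM-mut libraries below them, and the libraries of BRM-wt stood on either side. The log2 difference from control was 0.21 (SE 0.18, adjusted p = 0.99, limma-voom) in BRG1-wt, 0.16 (SE 0.18) in BRG1-mut, -0.02 (SE 0.18) in BRM-wt and -0.24 (SE 0.18, adjusted p = 0.993) in BRM-mut. The 95% interval in BRG1-wt ran from -0.22 to 0.63. MYL6B (ENSG00000196465, chromosome 12 from 56546040 to 56553431, plus strand) ends inside MYL6, with 1302 bp shared by the genes and 89 bp by their exons (2.0% of the exonic bases of MYL6), where reads cannot be assigned to either. MYL6B had 1610.25 and 822 normalised reads in control, 1612 and 1582 in BRG1-wt, 2109 and 1808 in BRG1-mut, 664 and 1992 in BRM-wt, and 1416 and 639 in BRM-mut. Both BRG1-mut libraries lay above the control libraries, and control, BRM-wt and BRM-mut each held a high and a low library. Its log2 difference from control was 0.77 (SE 0.54, adjusted p = 0.721) in BRG1-mut and 0.39 (SE 0.29, adjusted p = 0.939) with GC bin medians subtracted.

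Of the heavy chain genes, MYH9 and MYH14 differed up to 4.47 and 5.31 times between libraries, and none passed the test. MYH10 (ENSG00000133026, chromosome 17 from 8377525 to 8534694, minus strand), whose exons have a GC content of 45.6%, ranged from 12936 to 15782 normalised reads, a factor of 1.22, the narrowest range of the 8 genes. Its log2 difference from control was 0.03 (SE 0.11, adjusted p = 0.99, limma-voom) in BRG1-wt and 0.11 (SE 0.11, adjusted p = 0.723) in BRG1-mut. MYH9 (ENSG00000100345, chromosome 22 from 36677326 to 36784055, minus strand), whose exons have a GC content of 56.3%, had 5961 and 3566 normalised reads in control, 6939.5 and 8179.9 in BRG1-wt, 8994 and 7967 in BRG1-mut, 3151 and 11406 in BRM-wt, and 5191 and 2551 in BRM-mut. All 4 libraries with a BRG1 plasmid lay above both control libraries, while BRM-wt held the highest library and, after BRM-mut b, the lowest. The log2 difference of MYH9 from control was 0.71 (SE 0.58, adjusted p = 0.99) in BRG1-wt and 0.88 (SE 0.58, adjusted p = 0.721) in BRG1-mut. With GC bin medians subtracted these were 0.53 (SE 0.28, adjusted p = 0.75) and 0.47 (SE 0.28, adjusted p = 0.939).

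MYH14, whose exons have a GC content of 58.5%, had 778 and 509 normalised reads in control, 649 and 918 in BRG1-wt, 1430.35 and 1177 in BRG1-mut, 300.2 and 1266.5 in BRM-wt, and 695 and 269 in BRM-mut. Both BRG1-mut libraries were higher than all control, BRG1-wt and BRM-mut libraries. The log2 difference between BRG1-mut and control was 1.05 (SE 0.63, adjusted p = 0.721, limma-voom), and 0.47 (SE 0.25, adjusted p = 0.939) with GC bin medians subtracted. Between BRG1-mut and BRM-mut, MYH14 differed by 1.58 (SE 0.65, adjusted p = 0.344), and by 0.70 (SE 0.26, adjusted p = 0.589) with GC bin medians subtracted. Of the summed level per kb of the 3 heavy chain genes, by the longest transcript, MYH10 made up between 46.7% in BRM-wt b and 77.8% in BRM-mut b over all libraries. MYH9 made up between 19.9% and 47.5% and MYH14 between 2.3% and 7.4%. The lowest MYH10 share and the highest MYH9 share were in the same library, as were the highest MYH10 share and the lowest MYH9 share.

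**Figure D2:**
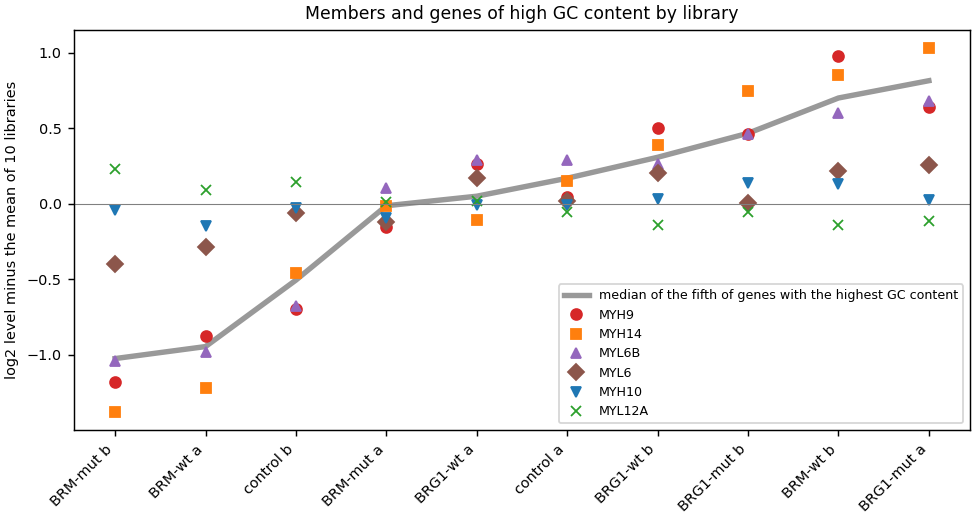
Log2 level of 6 members in each library minus the gene's mean over the 10 libraries (vertical axis), with the libraries ordered by the median of the fifth of genes with the highest GC content (grey line). MYH9, MYH14 and MYL6B lie near the grey line, which runs from -1.02 in BRM-mut b to 0.82 in BRG1-mut a, whereas MYH10 and MYL12A lie closer to 0.

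The grey line in the plot is the median of genes with a GC content of at least 56.8%. MYH14 (58.5%) is in that class, whereas MYH9 (56.3%) and MYL6B (56.0%) lie below it. Closeness to the line thus does not show how far a member moved with its own GC class. In BRM-mut b the median of the genes in the GC bin of MYH14 was -0.79 on the log2 scale, that of the bin of MYH9 -0.57 and that of the bin of MYL6B -0.55. In BRG1-mut a these medians were 0.58, 0.43 and 0.41. In the bins of MYL12B and MYH10 they were 0.01 and 0.11 in BRM-mut b. MYH14 itself was 5.31 times and MYL6B 3.3 times as high in BRG1-mut a as in BRM-mut b. MYH9 had 8994 and 2551 normalised reads in the same libraries. Each of these genes differed more between these libraries than the median of its own bin. BRG1-mut a and BRM-mut b were the highest and lowest libraries of MYH14 and of MYL6B, so a wide gap was favoured by this choice. Whether these genes moved beyond their GC class was not tested. MYL9, with an exonic GC content of 60.4%, was in a bin with medians of -0.92 in BRM-wt a and 0.63 in BRM-wt b, the libraries in which it had 12 and 53 reads. In the BRG1-wt libraries that median was 0.04 and 0.28, and in the control libraries 0.18 and -0.47. What gave the libraries this difference was not tested.

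Counted over the 8 genes, no member passed an adjusted p under 0.05 in any of the 8 comparisons made. This holds against a background of 0.17% of 16509 genes called in BRG1-wt against control, 0.254% in BRM-wt against control, 0.103% in BRG1-wt against BRG1-mut and 0.206% in BRM-wt against BRM-mut, all of them higher in the wild-type group. In BRG1-mut against control, BRM-mut against control, BRG1-wt against BRM-wt and BRG1-mut against BRM-mut, 0% of genes were called, with 250, 79, 88 and 1279 genes at an unadjusted p under 0.05 by limma-voom and 0, 1, 1 and 1 called by limma-trend. With GC bin medians subtracted, 0.89% of genes were called in BRG1-wt against control, 0.00606% in BRG1-mut, 0.933% in BRM-wt and 0% in BRM-mut, and 0.691% and 0.854% in the comparisons of wild type with mutant for BRG1 and BRM, again with no member among them. At an unadjusted p under 0.05, MYL9 was the single member in BRG1-wt against control and in both comparisons of wild type with mutant, where 690, 631 and 722 of all 16509 genes passed the same threshold. MYH14 was the single member in BRG1-mut against BRM-mut, with 1279 genes in all, and no member passed in the other 4 comparisons. The median log2 difference of the members was 0.25 in BRG1-wt, 0.46 in BRG1-mut, -0.04 in BRM-wt and -0.25 in BRM-mut against control, while that of all genes tested was between -0.02 and 0.01. After subtraction of GC bin medians the members' medians were 0.11, 0.13, -0.03 and -0.09. All 4 differences from control share the same 2 control libraries.

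The libraries of the groups did not overlap for 4 of the 8 members in BRG1-wt against control, where the same was true of 37.5% of all genes, and for 6 of 8 in BRG1-mut, where it was true of 57.2%. In BRM-wt this held for 2 of 8 members against 18.6% of all genes and in BRM-mut for 2 of 8 against 19.3%. Between wild type and mutant it held for 3 of 8 members with BRG1 (48.8% of all genes) and for 2 of 8 with BRM (19.1%). These shares lie near the background or rest on so few genes that they say little of the members. Between BRG1-mut and BRM-mut, 6 members lay higher and 2 lower without overlap, and between BRG1-wt and BRM-wt 0 did so. The share over all genes was not computed for the comparisons of BRG1 with BRM, so these counts are not set against a background. With 2 libraries against 2, an exact permutation test of a single gene cannot give a two-sided p under 0.333.

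**Figure D3:**
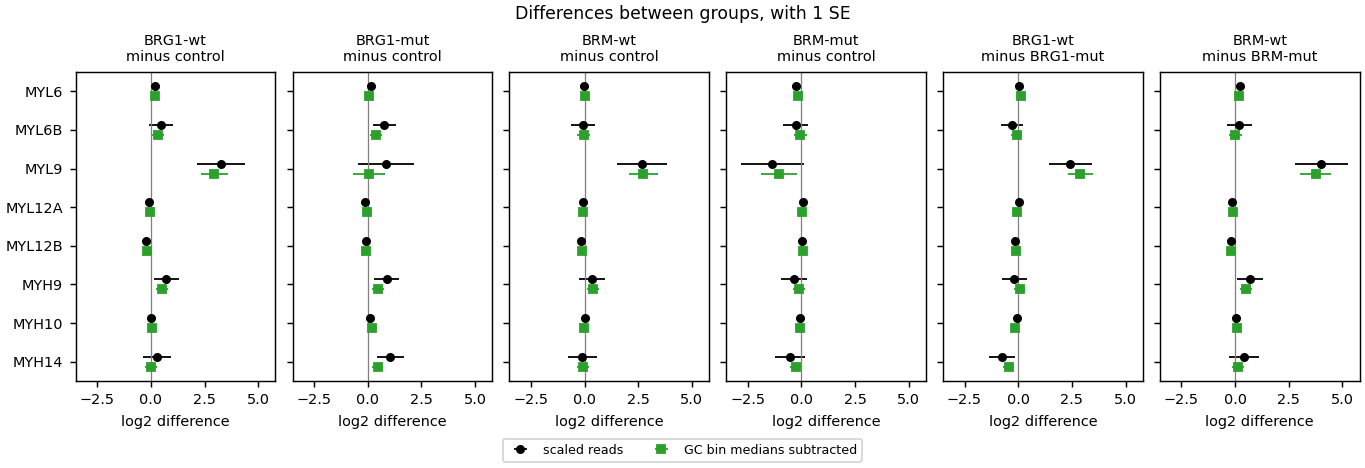
Log2 differences between groups (horizontal axes) of the 8 genes in 6 comparisons, with bars of 1 SE, from limma-voom on scaled reads (black circles) and with GC bin medians subtracted (green squares). MYL9 lies between 2.43 and 4.02 in the 4 comparisons in which a wild-type ATPase is set against control or against its mutant, and the errors of MYL6B, MYH9 and MYH14 shrink once the GC bin medians are subtracted.

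Splicing was measured as PSI, the fraction of transcripts that include an exon, here in percent. The 8 splicing tables each pair 1 ATPase library with the control library that has its replicate number and list between 396 and 977 events past a Bayes factor of 10. A PSI is thus known here only in the tables that list the exon, and it is printed to 2 decimals of a fraction, so each value is uncertain by 0.5 percentage points from rounding alone. The reads behind it are unknown. Of the 8 genes, MYL6B, MYL9, MYL12A, MYL12B, MYH9 and MYH10 had no listed exon.

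MYL6 exon 6 was included in a minor share of transcripts in all libraries listed, and more often in both BRG1-wt libraries than in control. The PSI was 7% in control replicate 1 and 10% in control replicate 2. It was 13% in BRG1-wt replicate 1 and 14% in BRG1-wt replicate 2, and 13% in BRG1-mut replicate 1. In BRM-wt it was 14% in replicate 1 and 6% in replicate 2. The table of BRG1-mut replicate 2 and both BRM-mut tables do not list the exon. Averaged over libraries, the PSI was 8.5% ± 2.12 (SD, n = 2) in control, 13.5% ± 0.71 (n = 2) in BRG1-wt and 10.0% ± 5.66 (n = 2) in BRM-wt. Paired by replicate number, the PSI changed by 6 and 4 percentage points in BRG1-wt, by 6 points in BRG1-mut replicate 1, and by 7 and -4 points in BRM-wt. The BRG1-wt libraries did not overlap with the control libraries, whereas the BRM-wt libraries lay on either side of them. A PSI is printed only where the exon passed a Bayes factor of 10 against the paired control library. A difference within each listed pair was thus set by the listing, and only its direction was free.

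On the scale of log2 odds, which compares small fractions more evenly, the changes were 0.99 and 0.55 in BRG1-wt, 0.99 in BRG1-mut replicate 1, and 1.11 and -0.80 in BRM-wt. These changes were small among listed events: 89.5% and 90.2% of the events in the BRG1-wt tables, 91.8% in that of BRG1-mut replicate 1, and 92.7% and 95% in those of BRM-wt changed by more percentage points. The direction of the MYL6 exon was also the more common direction in each table that lists it, with 55.6% and 56.1% of events higher than control in BRG1-wt, 57.7% in BRG1-mut replicate 1, and 59.9% in replicate 1 but 43.6% in replicate 2 of BRM-wt. The study's methods discard exons whose replicates move in opposite directions, as those of BRM-wt did here. From its splicing analysis the study names the MYL6 exon as more included with mutant and with wild-type BRG1, and does not name wild-type BRM there. By qPCR it reports higher inclusion with either wild-type ATPase and with mutant BRG1. In HeLa cells it reports lower inclusion after knock-down of BRG1 but not of BRM. The PSI of both control libraries differed by 3 percentage points from each other, and each control library is used in 4 tables.

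MYH14 exon 6 was listed in a single table. Its PSI was 12% in control replicate 2 and 48% in BRG1-mut replicate 2, a change of 36 percentage points and of 2.76 on the log2 odds scale. Of the 632 events listed there, 27.7% changed by more. The exon has no value in BRG1-mut replicate 1, so this change has no check in another library. MYH14 was also higher in both BRG1-mut libraries than in control, but which of the recovered BRG1-mut libraries is replicate 2 is not known.

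**Figure D4:**
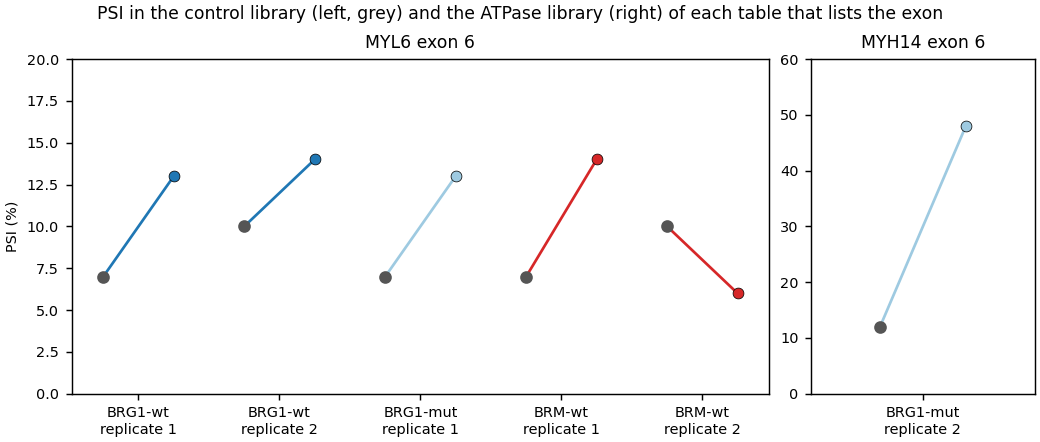
PSI (vertical axes, in percent) of MYL6 exon 6 (left) and MYH14 exon 6 (right) in each splicing table that lists the exon, with the control library in grey and the ATPase library in colour. The control points are 1 library per replicate number, drawn again for each table. The MYL6 exon went up from 7% or 10% to 13% or 14% in 4 tables and down from 10% to 6% in BRM-wt replicate 2, and the MYH14 exon went up from 12% to 48% in BRG1-mut replicate 2.

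Outside the members, 6 events were listed in all 5 tables that list the MYL6 exon. The nearest in its changes was a 503 bp exon of ACTB (chromosome 7 from 5568792 to 5569294), the gene of cytoplasmic beta-actin, with a root mean square difference of 14.3 percentage points. Its PSI changed by -9 and -5 points in BRG1-wt, by -8 in BRG1-mut replicate 1 and by -11 and 10 in BRM-wt, so that it moved against the MYL6 exon in each of the 5 tables. A 1521 bp exon of YTHDF1, which encodes a reader of methylated RNA, differed by 21.1 points and had the sign of the MYL6 exon in all 5 tables. A 156 bp exon of PBRM1, a subunit of SWI/SNF complexes, differed by 25.3 points and had the same sign in 4 tables, with -24 points in BRG1-wt replicate 2. The YTHDF1 exon and the PBRM1 exon changed by up to 39 points in BRM-wt, far more than the MYL6 exon.

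No kinase or phosphatase gene that acts on regulatory light chains passed the test. Of 16 genes of this list, 15 were tested and 0 passed in each of the 8 comparisons, also with GC bin medians subtracted. The median log2 difference of the 15 genes from control, with GC bin medians subtracted, was between -0.02 and 0.02 in the 4 groups. PPP1CB, the catalytic subunit of myosin phosphatase, ROCK1, a kinase that activates myosin, and CDC42BPB, a kinase of the same family, had the highest levels per kb. Of 6 splicing factors that the study names (KHDRBS1, DHX15, U2AF2, HNRNPU, HNRNPL and XAB2), a part of those it discusses, 0 passed in any comparison.

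Among the partners on actin filaments, some genes were higher in the same groups as MYL9. Of 16 genes, 16 were tested, and 1 (TPM1, in BRM-wt against control) passed an adjusted p under 0.05 in the main fit. With GC bin medians subtracted, TPM1, CNN1 and TAGLN passed in BRG1-wt and in BRM-wt against control and in both comparisons of wild type with mutant. All 3 were higher in the wild-type group, and none passed in BRG1-mut or BRM-mut against control. These genes are named after their values were seen. TPM1, which encodes a tropomyosin, had 2136 and 2287 normalised reads in control, 5242 and 4162 in BRG1-wt, 5264 and 4272 in BRM-wt, 2025 and 2061 in BRG1-mut, and 2112 and 2274 in BRM-mut. Its log2 difference from control was 1.08 (SE 0.15, adjusted p = 0.066, limma-voom) in BRG1-wt and 1.11 (SE 0.15, adjusted p = 0.0496) in BRM-wt.

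CNN1, which encodes smooth muscle calponin, had 32.0 and 16.6 normalised reads in control, 238 and 209.6 in BRG1-wt, 125 and 329.5 in BRM-wt, 68.9 and 55.2 in BRG1-mut, and 46.7 and 34.2 in BRM-mut. The libraries of both mutant groups also lay above those of control, by a log2 difference of 1.41 (adjusted p = 0.721, limma-voom) in BRG1-mut and 0.78 (adjusted p = 0.993) in BRM-mut, or 0.82 and 1.06 with GC bin medians subtracted (adjusted p = 0.939 and 1.0). The log2 difference of CNN1 from control was 3.25 (SE 0.60, adjusted p = 0.139) in BRG1-wt and 3.06 (SE 0.60, adjusted p = 0.185) in BRM-wt, with adjusted p = 0.00315 and 0.00216 once GC bin medians were subtracted. TAGLN, which encodes transgelin, had 488 and 386 normalised reads in control, 2533 and 1895 in BRG1-wt, 934 and 2788 in BRM-wt, 708 and 616 in BRG1-mut, and 433 and 311 in BRM-mut, with adjusted p = 0.00971 in BRG1-wt and 0.0186 in BRM-wt against control after the same subtraction. ACTG1, ACTB and CNN2, the members of this list with the highest level per kb, did not pass in any comparison. MYH11, the smooth muscle heavy chain, had at most 3.57 and DES at most 3.58 normalised reads in any library. Of 19 muscle myosin genes, 18 were found in the tables, 3 were tested (MYH3, MYL5 and MYH15) and 0 passed.

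Of the unconventional myosins, which move cargo and membranes and do not form filaments, 23 of 24 were found in the tables and 15 tested. MYO10, the motor of filopodia, passed in BRG1-wt and in BRM-wt against control and in both comparisons of wild type with mutant. It had 94.0 and 136 normalised reads in control, 597 and 536 in BRG1-wt, 806 and 966 in BRM-wt, 159 and 178 in BRG1-mut, and 132 and 119 in BRM-mut. Its log2 difference was 2.33 (SE 0.22, adjusted p = 0.0258, limma-voom) in BRG1-wt and 2.96 (SE 0.22, adjusted p = 0.00577) in BRM-wt against control, 1.75 (SE 0.21, adjusted p = 0.0469) between BRG1-wt and BRG1-mut, and 2.80 (SE 0.21, adjusted p = 0.0076) between BRM-wt and BRM-mut. MYO10 is named after its values were seen. MYO1C and MYO6, among the genes of this list with the highest levels per kb, did not pass.

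**Figure D5:**
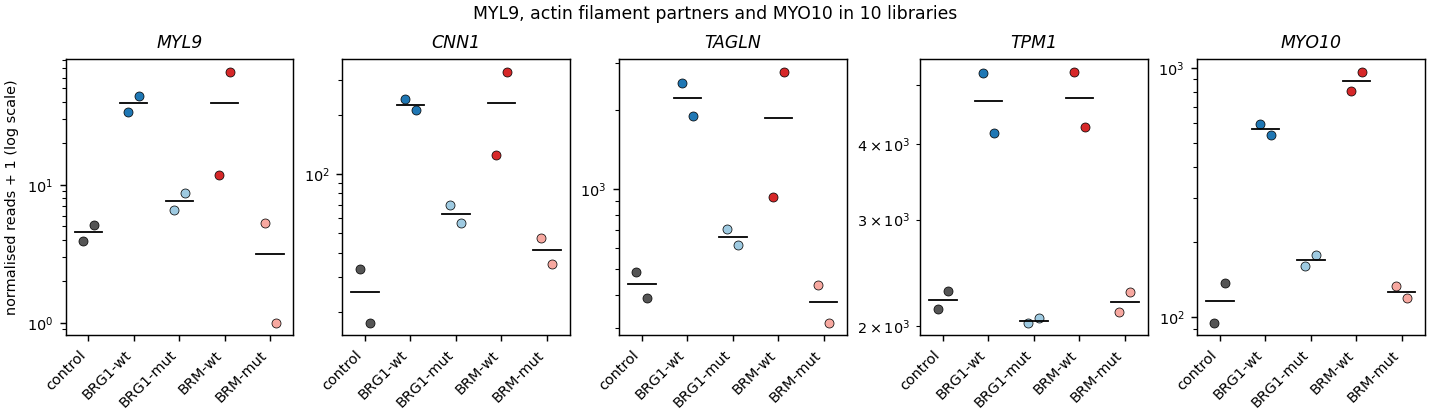
Normalised reads plus 1 (log scale, a separate range in each panel) of MYL9 and 4 other genes, chosen after their values were seen, in the 10 libraries, by group, with library a left, library b right and the mean of both as a line. In all 5 panels each BRG1-wt and BRM-wt library lies above every library of control, BRG1-mut and BRM-mut.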

How the data were processed

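RNA of 10 libraries was sequenced by the authors, mapped with TopHat2 2.0.4 to GRCh37 and counted per gene with HTSeq 0.6.1 (per the labels and the study's methods). The authors ran DESeq2 on 2 libraries of a group and the 2 control libraries, and the deposited tables give a base mean, a signal that is the mean over 4 libraries of counts divided by size factors, besides fold changes and p-values of that comparison, which were not used. The deposited PSI is a fraction computed by the authors with MISO; Bayes factors and directions beside it were not used. A second copy of the BRG1-wt table was left out.

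Reads per library were recovered from the base means, in place of the ratios of base means that had been planned. Each base mean is a sum of 4 whole numbers of steps, where a step is set by a library's size factor, and the libraries present in all 4 tables are the controls. The whole numbers that met all 4 tables within a relative gap of 1e-14 were found for 63144 of 63152 identifiers (the 8 others have base means of at least 112687). Genes with a mean of at least 10 normalised reads (16509) were compared with limma 3.58.1 (voom, R 4.3.3) over all 10 libraries without a block, with Benjamini-Hochberg adjustment over all genes. Both steps were tested on simulated data. Gene positions, exon lengths and sequences are from GRCh37 with the GENCODE annotation lifted to that build. PSI values were compared within replicate numbers, which pair each library with 1 control library.

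The members and gene lists were chosen with earlier results of these data known. All members are named, of each list the 3 genes with the highest level per kb, except for genes that are not reported here, and 3 exons most like the MYL6 exon in their changes. Alternatives were other filters and scalings, GC bins, limma-trend with a pseudocount of 1, and each library or replicate left out. Intervals of the MYL9 read ratios cover counting error only, and those of log2 differences come from limma's standard errors over libraries. Python 3.11.15 was used with numpy 2.4.6, pandas 2.3.3, scipy 1.17.1, biopython 1.88 and matplotlib 3.10.9.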

Additional observations from a re-analysis of the deposited data

How the results depend on the processing

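No member passed an adjusted p under 0.05 under any alternative with all libraries, with limma-voom or limma-trend. Leaving out 1 library at a time gave 0 members called on scaled reads, and with GC bin medians subtracted 1 member (MYL9) in both comparisons of wild type with mutant without BRM-wt a, otherwise 0. Counts over all genes moved more. They were 28, 0, 42, 0, 17, 34, 0 and 0. The first 4 of these are for each group against control (wild-type BRG1, its mutant, wild-type BRM, its mutant), the next 2 for wild type against mutant (BRG1, BRM) and the last 2 for BRG1 against BRM (wild type, mutant), and the same order holds below. After subtraction of GC bin medians they were 147, 1, 154, 0, 114, 141, 1 and 1, with limma-trend 44, 0, 48, 1, 15, 44, 1 and 1, and with limma-trend and GC bins 177, 1, 178, 1, 116, 167, 2 and 2. Without a minimum level they were 55, 0, 63, 0, 40, 66, 0 and 1, and with a minimum of 100 normalised reads 22, 0, 26, 0, 5, 23, 0 and 0. Leaving out 1 library gave 0 to 76, 0, 0 to 113, 0 to 1, 0 to 55, 0 to 83, 0 to 1 and 0 to 2. Without control a or control b, 0 genes were called for either wild type against control and for wild-type against mutant BRG1, and the highest counts came without BRM-wt a or BRM-wt b. Limma-trend, its GC bins, the scaling by total reads and the left-out libraries were added after seeing the data.

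Small differences turned sign in some settings. After the same subtraction, MYL6 in BRM-wt against control was 0.01, MYL12A in BRG1-wt against BRG1-mut -0.04, MYH9 in the same comparison 0.07 (0.06 with limma-trend) and MYH10 in BRM-wt against control -0.01 (0.0 with limma-trend). MYH10 in BRM-wt was 0.0 with no minimum and -0.03 scaled by total reads, and MYL6B in BRM-wt was 0.0 with limma-trend. Leaving out 1 library gave these ranges against control: in BRG1-wt MYL6B 0.0 to 0.96, MYL12A -0.2 to 0.0 and MYH14 -0.01 to 0.59. In BRG1-mut MYL9 ranged from -0.5 (GC bins, without control a) to 1.07, with -0.3 in GC bins without BRG1-mut b. In BRM-wt the ranges were MYL6 -0.26 to 0.24, MYL6B -0.8 to 0.79, MYL12A -0.18 to 0.05, MYH9 -0.55 to 1.31, MYH10 -0.13 to 0.15 and MYH14 -1.07 to 1.01. In BRM-mut they were MYL6B -0.85 to 0.31, MYL9 -2.98 to 0.27 (0.11 in GC bins without BRM-mut b), MYL12A -0.03 to 0.19, MYL12B -0.03 to 0.09, MYH9 -0.85 to 0.18 and MYH14 -1.22 to 0.15. In BRG1-wt against BRG1-mut they were MYL6 -0.08 to 0.17 and MYL12A -0.05 to 0.09. In BRM-wt against BRM-mut they were MYL6 -0.02 to 0.47, MYL6B -0.54 to 1.04, MYH9 -0.21 to 1.64, MYH10 -0.07 to 0.19 and MYH14 -0.55 to 1.52. The cause was not tested.

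By the longest transcript, the control level per kb was 19604 for MYL12B, 16191 for MYL12A, 2999 for MYL6, 1343 for MYH10, 932 for MYL6B, 631 for MYH9 and 93.1 for MYH14, since that length is shorter than all exons together. No paired analysis was possible because the recovered reads carry no replicate number. For PSI, which is paired by replicate number, the change without the replicate block (no replicate block) was 36.0 points for the MYH14 exon, and for the MYL6 exon 5.0 with wild-type BRG1, 4.5 with its mutant and 1.5 with wild-type BRM. The MYL6 change in BRM-wt was 1.5 points on average, -4.0 without replicate 1 and 7.0 without replicate 2, and in BRG1-wt it lay between 4.0 and 6.0. Leaving out exons with opposite directions in the replicates left 1 of 6 member listings. The planned fold of 1.5 and the planned ratio without centring were not run, since base mean ratios were replaced by reads. A lone library left in a group is assumed to vary like the other groups.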

Other observations

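Exons of partner genes were listed as well, and they are given here as values. In the list of kinases and phosphatase, 3 of 16 genes had a listed exon. A 207 bp exon of MYLK, the kinase of regulatory light chains, had a PSI of 85% in control and 27% in BRG1-mut replicate 1. A 78 bp exon of CDC42BPB had a PSI of 9% in control replicate 1, 33% in BRG1-mut replicate 1 and 31% in BRM-wt replicate 1, while replicate 2 gave 23% in control and 8% in BRM-wt. In the list of actin filament partners, 6 of 16 genes had a listed exon, with 4 listings higher and 14 lower than control. A 78 bp exon of CALD1, which encodes caldesmon, was lower in 3 tables, with 35% in control and 27% in BRG1-wt replicate 1, 34% and 25% in BRG1-wt replicate 2, and 34% and 27% in BRG1-mut replicate 2. These exons were chosen after their values were seen, and the tables share their control libraries.

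The keratin genes KRT8 and KRT18 had normalised reads of 112 and 79.8 and of 274 and 123 in control, 882 and 729 and 1040.3 and 1316 in BRG1-wt, and 329.8 and 1011 and 879.9 and 1158 in BRM-wt. With GC bin medians subtracted both passed an adjusted p under 0.05 (limma-voom) in BRG1-wt and in BRM-wt against control. EPCAM, of the same list, had log2 differences of -0.14 and -0.19 in these comparisons and 0.49 in BRG1-mut, on the same scale.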
